A study of Mus musculus with 18 samples.

Results

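The arrays described here are E2f TKO 2 and E2f TKO 5, which are 2 of the 5 arrays labelled E2f TKO in a series of 18. They were chosen by a measured value. Among the E2f TKO arrays, the log2 signal of the Cyp1a1 probe set lay below 8 in these 2 arrays and above 8 in the other 3, replicates 1, 3 and 4. The reading nearest to 8 was 5.05 inside the pair (E2f TKO 2) and 14.02 outside it (E2f TKO 4), and no E2f TKO array read between them. Because a readout picked the pair, differences between the 2 sets of E2f TKO arrays are given as descriptions with no test. An exact permutation test over the 10 ways of splitting 5 arrays into 2 and 3 could in any case not give a p below 0.1. Every signal below is the deposited log2 value, every difference is on the log2 scale, and 1 on that scale is a factor of 2.

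The samples are RNA of crypts from the small intestine, harvested 2 days after gene ablation from mice 2 months old. E2f TKO mice (n = 5) had E2f1, E2f2 and E2f3 ablated, E2f/Myc QKO mice (QKO here, n = 5) these genes and Myc, and Myc KO mice (n = 4) Myc alone, and 4 arrays are control. The alleles were removed with Ah-cre, an inducible Cre recombinase. The labels do not give the inducing agent, the sex, whether control mice carried Ah-cre or received the agent, or whether E2f1 and E2f2 were removed in the crypts or were absent from the germline. Ah-cre acts in the epithelium, so other cells of a crypt sample may keep their alleles. Nothing in the labels says that each numbered sample came from its own mouse, so p-values measure the spread between these samples, which may be technical.

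The aryl hydrocarbon receptor (AhR) is a transcription factor that planar aromatic ligands activate. Together with its partner Arnt it binds DNA elements with the core GCGTG and switches on Cyp1a1, Cyp1b1 and Cyp1a2, cytochromes that oxidise aromatic compounds, and Ahrr and Tiparp, which feed back on the receptor. Ah-cre places Cre under a Cyp1a1 promoter, so that the same ligands that raise Cyp1a1 also switch on Cre. E2f1, E2f2 and E2f3 are transcription factors of the cell cycle that act with the retinoblastoma family on genes of DNA replication and mitosis, and the crypt is the dividing compartment of the gut epithelium.

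The 250 bases before the annotated start of the 3 cytochromes named above and of the feedback genes Ahrr and Tiparp are shown because these genes are described first below. They come from RefSeq for GRCm38.p6, are written 5′ to 3′ on the strand of the gene, and have each GCGTG, on either strand, in capitals.
Cyp1a1: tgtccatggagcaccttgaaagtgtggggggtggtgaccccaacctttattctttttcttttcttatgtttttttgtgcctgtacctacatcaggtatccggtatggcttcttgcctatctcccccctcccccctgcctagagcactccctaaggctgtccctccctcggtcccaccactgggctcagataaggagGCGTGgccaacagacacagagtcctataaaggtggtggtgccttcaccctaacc
Cyp1b1: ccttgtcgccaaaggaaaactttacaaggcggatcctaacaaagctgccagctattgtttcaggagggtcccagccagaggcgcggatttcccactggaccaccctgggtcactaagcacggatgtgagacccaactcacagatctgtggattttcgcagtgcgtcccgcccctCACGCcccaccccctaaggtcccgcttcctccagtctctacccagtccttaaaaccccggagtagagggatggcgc
Cyp1a2: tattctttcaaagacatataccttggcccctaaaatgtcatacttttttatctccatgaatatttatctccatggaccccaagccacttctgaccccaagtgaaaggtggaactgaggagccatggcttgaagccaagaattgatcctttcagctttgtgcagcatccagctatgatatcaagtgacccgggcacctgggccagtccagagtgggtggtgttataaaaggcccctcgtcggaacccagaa
Ahrr: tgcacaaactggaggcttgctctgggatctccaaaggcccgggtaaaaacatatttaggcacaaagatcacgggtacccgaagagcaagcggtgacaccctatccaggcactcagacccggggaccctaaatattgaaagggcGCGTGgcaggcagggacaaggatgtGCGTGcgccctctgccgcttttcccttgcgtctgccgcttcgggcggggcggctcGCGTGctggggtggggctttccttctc
Tiparp: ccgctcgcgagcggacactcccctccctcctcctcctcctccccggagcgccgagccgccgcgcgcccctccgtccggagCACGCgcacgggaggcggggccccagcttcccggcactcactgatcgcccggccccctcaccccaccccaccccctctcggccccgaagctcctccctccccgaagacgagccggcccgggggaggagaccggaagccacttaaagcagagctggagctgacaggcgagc
The windows lie at chr9:57697363-57697612, plus strand, for Cyp1a1, at chr17:79715062-79715311, minus strand, for Cyp1b1, at chr9:57683656-57683905, minus strand, for Cyp1a2, at chr13:74292332-74292581, minus strand, for Ahrr, and at chr3:65528197-65528446, plus strand, for Tiparp. Cyp1a1 holds 1 match, 54 bases before the start. The match of Cyp1b1 lies 76 bases before the start and that of Tiparp 170, both on the opposite strand. Ahrr holds 3, at 107, 82 and 27 bases before the start, and the window of Cyp1a2 holds 0. The core is short and common: it stood in 32.4% of the 32851 RefSeq windows that run from 250 bases before to 50 after a start, and 3 of the 6 AhR target enzymes with such a window held it. A further set held the genes below all 16 other arrays in the pair whose difference from the other E2f TKO arrays was at least 1. Of the 59 genes of that set with a window, 24 held it, which is 40.7% beside 35.2% of all 27025 genes with a window. A match describes letters and does not mark a site in use.

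Mki67 and Cdkn3 are shown in the same way because they were among the 12 genes with the largest positive difference between the pair and the other E2f TKO arrays. TTTGAA, the cell cycle homology region through which MuvB complexes, which join E2f and retinoblastoma family partners, act on mitotic genes, is in capitals on either strand.
Mki67: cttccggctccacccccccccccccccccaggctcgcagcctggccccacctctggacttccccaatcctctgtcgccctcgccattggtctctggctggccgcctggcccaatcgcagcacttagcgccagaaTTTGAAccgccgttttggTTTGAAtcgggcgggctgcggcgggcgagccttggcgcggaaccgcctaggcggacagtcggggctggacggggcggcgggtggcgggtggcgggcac
Cdkn3: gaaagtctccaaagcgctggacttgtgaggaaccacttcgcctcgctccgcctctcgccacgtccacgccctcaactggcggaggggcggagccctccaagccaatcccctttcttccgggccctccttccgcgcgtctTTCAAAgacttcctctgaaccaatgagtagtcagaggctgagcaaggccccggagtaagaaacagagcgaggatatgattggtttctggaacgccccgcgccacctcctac
The window of Mki67 lies at chr7:135716380-135716629, minus strand, and that of Cdkn3 at chr14:46760291-46760540, plus strand. Mki67 holds TTTGAA 116 and 98 bases before its start, and Cdkn3 holds it once on the opposite strand, 111 bases before. Cdkn3 is not on the list of genes of mitosis. Of the 48 genes of that list with a window, 35 held these letters, which is 72.9% beside 20.2% of all genes with a window and 17.9% of all windows. Matches of TTTGAA and GCGTG cannot overlap, on either strand.

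The arrays of the pair resembled each other (r = 0.993 across all probe sets) more than they resembled the other E2f TKO arrays (r = 0.977 to 0.991), while the other 3 correlated at 0.986 to 0.995 among themselves. Measures other than AhR genes also set arrays apart. E2f TKO 2 had the largest 3′ over 5′ difference of all 18 arrays for the actin control probe sets, 0.78, against 0.18 to 0.44 in the other 17, E2f TKO 5 among them at 0.3. Its Gapdh difference was 0.24, against -0.2 to -0.02 elsewhere. Xist, the RNA made from the inactive X chromosome, read 6.56 and 6.65 in E2f TKO 2 and 5, and 12.02, 6.66 and 12.54 in E2f TKO 1, 3 and 4, so both arrays of the pair were low and only E2f TKO 3 of the others was. E2f TKO 1 stood apart within its own set, with higher enterocyte and T cell genes and lower mitotic genes. Values without it are given where they matter. The part of RNA quality, sex and E2f TKO 1 in the differences was not tested.

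E2f3, the third of the deleted genes, was higher in the pair than in every other array (485 of 18193 genes, 2.67%, were above all 16 others). E2f3 read 9.35 and 9.1 in E2f TKO 2 and 5, against 8.22, 8.39 and 8.08 in E2f TKO 1, 3 and 4. Its level was 8.17, 8.09, 8.14, 8.19 and 8.11 in QKO arrays, 8.44, 8.52, 8.55 and 8.6 in Myc KO arrays and 8.62, 8.73, 8.81 and 8.96 in control arrays with the brighter of its probe sets. The difference between the sets of E2f TKO arrays was 0.99 ± 0.11. The other 3 E2f TKO arrays and all QKO and Myc KO arrays lay below the 4 control arrays, and the pair lay above them. Myc KO arrays, in which E2f3 was not targeted, were among those below control, so this level alone does not show a deletion. By this probe set the label of the pair as a knockout was not borne out, and E2f TKO names here and throughout the library as labelled. The dimmer probe set did not show this gap: it read 6.71 and 6.9 in E2f TKO 2 and 5, 6.61, 6.7 and 6.18 in E2f TKO 1, 3 and 4, and 6.65 to 6.83 in control arrays, and the mean of both probe sets gave a difference of 0.65. Where either probe set lies relative to the deleted part of E2f3 was not looked up here, so they check the labels only if the probed part was removed. E2f3 is among the genes by which the pair was marked, and no test is given for it within E2f TKO. On the arrays outside the split, E2f3 was lower in QKO than in Myc KO crypts by a difference of -0.39 ± 0.06 (limma adjusted p = 0.0026 in a fit of those 9 arrays, 0.26 in a fit of all 18).

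The other targeted genes did not separate the pair. E2f1 read 7.59 and 7.84 in E2f TKO 2 and 5, against 7.48, 7.59 and 7.71 in E2f TKO 1, 3 and 4 (control 7.7 to 8.05), and E2f2 read 8.9 and 9.12 in E2f TKO 2 and 5, against 8.61, 9.16 and 9.08 in E2f TKO 1, 3 and 4 (control 8.91 to 9.28). Neither gene passed the test of all arrays labelled E2f TKO against control, with differences of -0.24 ± 0.11 (limma adjusted p = 0.321) and -0.15 ± 0.13 (adjusted p = 0.707), and probes outside a deleted part would not show a deletion. These values are of the brightest probe set of each gene, and dimmer ones differed. Another for E2f1 read 7.80 and 7.75 in the pair and 7.55, 7.66 and 7.82 in the other E2f TKO arrays, all above control (7.1 to 7.47). Another for E2f2 read 7.38 and 8.16 in the pair and 7.57, 8.24 and 7.9 in the others, with 8.16 to 8.21 in control. Of 13 members of the E2f, Dp and pocket protein families, 4 were higher in the pair without overlap and 0 lower, beside 17.1% and 18.7% of all genes. Myc, intact in E2f TKO mice, read 10.50 and 10.27 in the pair, 10.07, 9.99 and 10.66 in E2f TKO 1, 3 and 4 and 9.69 to 10.30 in control arrays, with all Myc KO and QKO arrays at 8.52 or below.

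The 3 cytochromes that define the AhR response were lower in the pair than in any of the 16 other arrays, whatever their genotype. E2f TKO 1, 3 and 4 lay above all 4 controls for each of them. Cyp1a1 read 5.05 and 4.91 in E2f TKO 2 and 5, against 14.09, 14.03 and 14.02 in E2f TKO 1, 3 and 4. It read 13.07, 13.75, 13.80, 13.43 and 13.47 in QKO arrays, 13.53, 13.71, 13.69 and 13.65 in Myc KO arrays and 13.30, 12.66, 13.44 and 13.80 in control arrays. The difference between the sets of E2f TKO arrays was -9.07 ± 0.24 (standard error of a limma fit of 5 group means). Both arrays of the pair read below their own array median (6.17 and 6.19), where a signal is not shown to be above background, while all 16 others lay among the bright genes. Cyp1b1 read 5.21 and 5.26 in E2f TKO 2 and 5, against 9.38, 10.27 and 10.60 in E2f TKO 1, 3 and 4. The same gene gave 10.06, 10.73, 10.66, 10.53 and 10.03 in QKO arrays, 9.87, 10.49, 10.10 and 9.76 in Myc KO arrays and 8.14, 5.64, 8.39 and 8.94 in control arrays. Control 2 came nearest to the pair, and its Cyp1a1 and Ahrr were also the lowest of the controls. Another Cyp1b1 probe set read 3.45 and 3.33 in E2f TKO 2 and 5 and 3.54 in control 2. The difference in Cyp1b1 was -4.85 ± 0.63.

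Cyp1a2 read 5.17 and 5.47 in E2f TKO 2 and 5, against 10.78, 9.34 and 8.95 in E2f TKO 1, 3 and 4. Its signal was 6.75, 8.77, 7.67, 6.31 and 7.78 in QKO arrays, 7.16, 6.98, 7.55 and 6.96 in Myc KO arrays and 7.38, 6.89, 6.23 and 7.29 in control arrays. For Cyp1a2 the other E2f TKO arrays were also the highest of the series, above every QKO, Myc KO and control array, and the difference was -4.37 ± 0.58. Ahrr encodes the repressor of the receptor. Ahrr read 4.37 and 4.07 in E2f TKO 2 and 5, against 7.15, 8.4 and 8.14 in E2f TKO 1, 3 and 4. Ahrr was 7.25, 7.61, 7.71, 7.01 and 6.55 in QKO arrays, 7.77, 8.24, 7.88 and 7.59 in Myc KO arrays and 6.91, 5.83, 7.72 and 8.3 in control arrays. The pair lay below all 16 other arrays, while E2f TKO 1 and 4 lay within the control range and E2f TKO 3 just above it (difference -3.68 ± 0.53). Tiparp, an ADP-ribosyltransferase that restrains the receptor, showed the same order with a smaller gap. Tiparp read 8.76 and 8.79 in E2f TKO 2 and 5, against 10.08, 10.11 and 9.93 in E2f TKO 1, 3 and 4, with 9.76 to 10.30 in QKO, 10.11 to 10.35 in Myc KO and 9.25 to 10.29 in control arrays (difference -1.26 ± 0.22). Of 3 probe sets for Tiparp, this one was the brightest, and the other 2 also read lower in both arrays of the pair than in E2f TKO 1, 3 and 4.

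**Figure D1:**
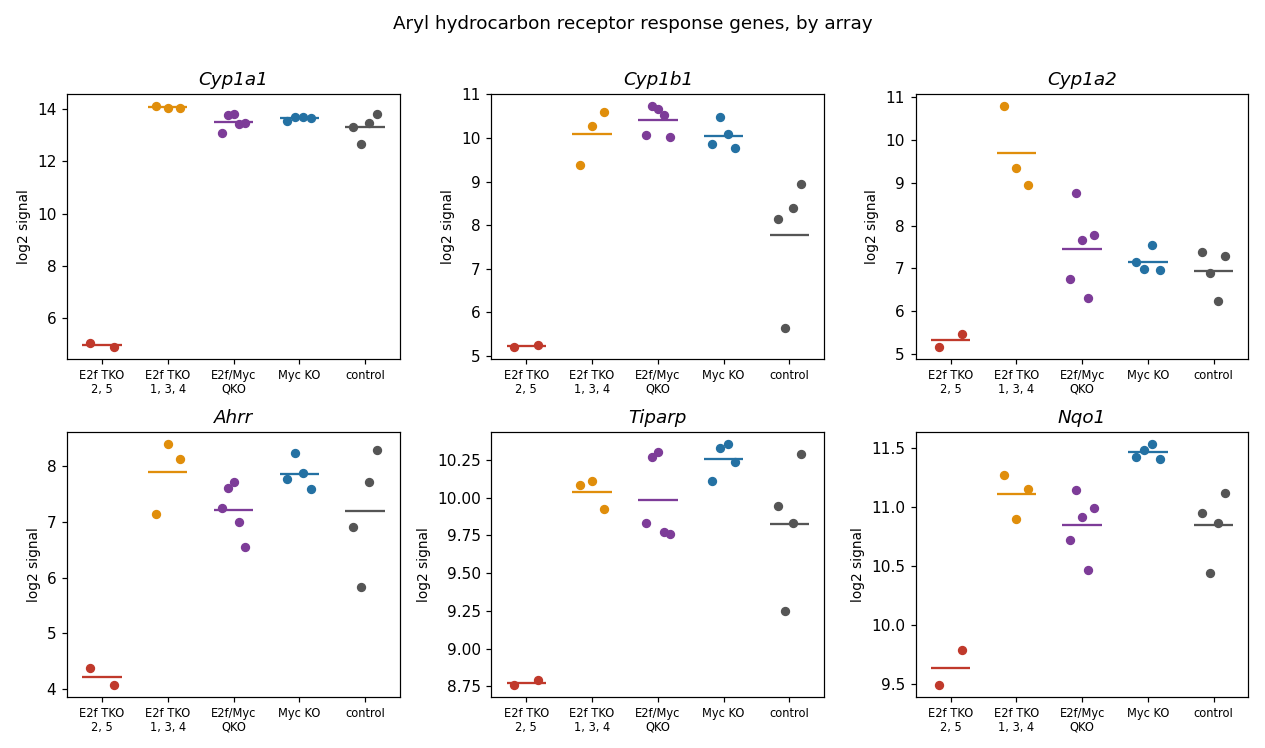
Log2 signal of 6 AhR-responsive genes in all 18 arrays, with 1 point for each array and a bar at the mean of each set (E2f TKO 2 and 5, E2f TKO 1, 3 and 4, E2f/Myc QKO, Myc KO and control, left to right). For each of the 6 genes both points of the pair lie below all 16 others, and for Cyp1b1 control 2 (5.64) lies nearest to them. The vertical axes differ between panels and do not start at 0.

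Across the genome, 277 of 18193 genes (1.52%) were lower in the pair than in the other E2f TKO arrays by at least 1 with no overlap between the sets, and 68 (0.374%) were higher by that rule. Without the size limit, the sets failed to overlap in 3394 genes (18.7%) on the lower side and 3108 (17.1%) on the higher. Of the 12 AhR target enzymes listed, 8 were measured, 6 were counted as lower and 4 were below all 16 other arrays, with a median difference of -2.23 beside -0.01 over all genes. Cyp1a1, which chose the pair, is on this list, and Cyp1b1, Cyp1a2 and Ahrr were named as markers along with it. Without Cyp1a1, 7 enzymes were measured, 5 were counted as lower and 3 were below all 16 other arrays, with a median difference of -1.47. Of all genes, 3.4% were below all 16. Gsta2, a glutathione S-transferase, read 7.67 and 8.43 in the pair and 11.73, 10.62 and 10.76 in the other E2f TKO arrays, but 1 QKO array was lower still, at 6.98. Xdh, xanthine dehydrogenase, read 10.84 and 10.74 in the pair and 12.81, 12.09 and 11.07 in the other E2f TKO arrays. In this gene the pair lay at or just above the control range of 10.11 to 10.83, and the other E2f TKO arrays were above all 4 controls. Aldh3a1 (3.41 and 3.5 in the pair, 3.55, 3.57 and 3.45 in the others) and Cyp2s1 (10.59 and 10.70 in the pair, 10.97, 10.62 and 10.55 in the others) overlapped between the sets, the first of them near the floor of the arrays in all 18.

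The receptor itself showed no such gap. Ahr read 9.51 and 9.5 in E2f TKO 2 and 5, against 9.7, 9.78 and 9.5 in E2f TKO 1, 3 and 4 and 9.82 to 9.98 in control arrays, so the sets touched and all 5 lay below the controls. Arnt read 8.42 and 8.35 in E2f TKO 2 and 5, against 8.41, 8.37 and 8.31 in E2f TKO 1, 3 and 4, within the control range of 8.31 to 8.6 in all 5. The chaperone Hsp90aa1, which holds the unbound receptor, and Nfe2l2 (Nrf2), the regulator of oxidative stress genes, also overlapped between the sets. Hsp90aa1 read 13.31 and 12.51 in the pair and 12.15, 12.81 and 12.86 in the other E2f TKO arrays. Nfe2l2 read 12.37 and 12.14 in the pair and 12.37, 12.21 and 11.82 in the other E2f TKO arrays. Of the 7 pathway regulators measured, 2 were counted as lower, Ahrr and Tiparp, beside 1.52% of all genes.

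Genes that Nrf2 is known to raise, some of them together with the AhR, were lower in the pair as a group. Of 22 Nrf2 targets measured, 21 were lower in both arrays of the pair than in E2f TKO 1, 3 and 4, beside 18.7% of all genes. By the size rule 11 were counted, beside 1.52% of all genes. Of the 22, 9 were below all 16 other arrays (618 of 18193 genes, 3.4%, were below all 16 with any size of difference). Their median difference was -0.96, and -0.82 without E2f TKO 1. Nqo1 read 9.49 and 9.78 in E2f TKO 2 and 5, against 11.27, 10.89 and 11.15 in E2f TKO 1, 3 and 4, with 10.46 to 11.14 in QKO, 11.41 to 11.53 in Myc KO and 10.44 to 11.12 in control arrays. This quinone reductase was thus below all 16 others in both arrays of the pair (difference -1.47 ± 0.19). Gsta3 read 7.4 and 7.91 in E2f TKO 2 and 5, against 10.79, 10.41 and 11.00 in E2f TKO 1, 3 and 4 and 9.51 to 11.09 in the 4 control arrays, and Gstm1 read 11.17 and 11.68 in E2f TKO 2 and 5, against 13.97, 13.32 and 13.61 in E2f TKO 1, 3 and 4 and 12.70 to 13.71 in the 4 control arrays. Both are glutathione S-transferases, and both were also lowest in the pair among all 18 arrays. Cbr3, a carbonyl reductase, split the pair itself: it read 7.62 and 9.59 in E2f TKO 2 and 5 and 13.07, 12.38 and 12.90 in E2f TKO 1, 3 and 4, and its mean difference of -4.18 was -5.16 for E2f TKO 2 alone and -3.19 for E2f TKO 5 alone.

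Other cytochromes of the epithelium followed in part. Of 15 measured, 14 were lower in the pair without overlap, 7 by at least 1, and 2 below all 16 other arrays, beside 18.7%, 1.52% and 3.4% of all genes. Cyp4b1 read 8.57 and 8.31 in E2f TKO 2 and 5, against 12.03, 10.00 and 10.01 in E2f TKO 1, 3 and 4 and 9.29 to 10.18 in the 4 control arrays, and Cyp4b1 was one of those 2. Cyp2c55 read 8.36 and 8.55 in E2f TKO 2 and 5, against 10.90, 10.15 and 10.04 in E2f TKO 1, 3 and 4 and 8.1 to 9.98 in the 4 control arrays, so here the pair lay inside the control range and the other 3 arrays lay above it. The list median against the control mean was -0.49 in E2f TKO 2 and -0.45 in E2f TKO 5, against 1.39, 0.24 and 0.03 in E2f TKO 1, 3 and 4. The median difference between the sets was -0.97, and -0.78 without E2f TKO 1. Akr1b8, an aldo-keto reductase, and Pmm1, a phosphomannomutase, were picked after their values were seen. Pmm1 read 7.5 and 7.72 in E2f TKO 2 and 5, against 10.76, 9.98 and 10.36 in E2f TKO 1, 3 and 4 and 8.92 to 9.64 in the 4 control arrays (difference -2.75 ± 0.22). Akr1b8 read 8.91 and 9.61 in E2f TKO 2 and 5, against 11.97, 11.28 and 12.01 in E2f TKO 1, 3 and 4 and 8.94 to 10.47 in the 4 control arrays (difference -2.49 ± 0.4). Pmm1 was below all 16 other arrays in the pair and above all 4 controls in the other 3.

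Genes of mitosis stood near control levels in the pair and below control in the other E2f TKO arrays. Of 59 measured, 42 were higher in both arrays of the pair than in E2f TKO 1, 3 and 4, and 0 were lower in both, beside 17.1% and 18.7% of all genes that were higher or lower without overlap. Of the 42, 7 were higher by at least 1, beside 0.374% of all genes. In 21 of the 59 both arrays of the pair lay within the control range, which held for 5093 of all 18193 genes (28%). The list median against the control mean was 0.02 in E2f TKO 2 and -0.14 in E2f TKO 5. It was -1.23, -0.41 and -0.24 in E2f TKO 1, 3 and 4, and -0.4 to -0.98 in the 5 QKO arrays, and the controls ranged over -0.11 to 0.11. The median difference between the sets was 0.58, and 0.27 without E2f TKO 1.

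Mki67, the Ki-67 antigen of cycling cells, gave the widest gap of the list. Mki67 read 11.87 and 11.49 in E2f TKO 2 and 5, against 9.26, 10.47 and 10.51 in E2f TKO 1, 3 and 4. The antigen read 10.41, 9.82, 9.81, 10.46 and 10.08 in QKO arrays, 11.60, 11.35, 11.72 and 11.77 in Myc KO arrays and 11.65, 11.82, 11.87 and 11.89 in control arrays. Its pair lay within or just below the control range while the other E2f TKO arrays sat with the QKO arrays (difference 1.6 ± 0.29). Cdkn3, Stmn1 and Fbxo5, also described here, are not on the list. Cdkn3, a mitotic phosphatase, read 8.49 and 8.42 in the pair, 5.96, 7.54 and 7.41 in E2f TKO 1, 3 and 4, 6.9 to 7.69 in QKO, 8.79 to 9.14 in Myc KO and 8.61 to 9.0 in control arrays. Stmn1, the microtubule regulator stathmin, read 12.63 and 12.59 in the pair, 10.51, 11.27 and 11.65 in the other E2f TKO arrays and 12.61 to 12.82 in control arrays. Topoisomerase II (Top2a) gave 11.44 and 11.10 in the pair, 9.36, 10.36 and 10.44 in the other E2f TKO arrays and 11.29 to 11.54 in control arrays. Cyclin B2 (Ccnb2) gave 10.66 and 10.66 in the pair, 8.65, 9.78 and 9.96 in the other E2f TKO arrays and 10.69 to 10.98 in control arrays. For each of Cdkn3, Stmn1, Top2a and Ccnb2, E2f TKO 1 was the lowest of the 5 and the pair did not overlap with the other 3. Fbxo5, an inhibitor of the anaphase-promoting complex picked after its values were seen, read 8.92 and 8.93 in the pair, 6.77, 7.92 and 7.96 in the other E2f TKO arrays and 9.02 to 9.25 in control arrays.

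**Figure D2:**
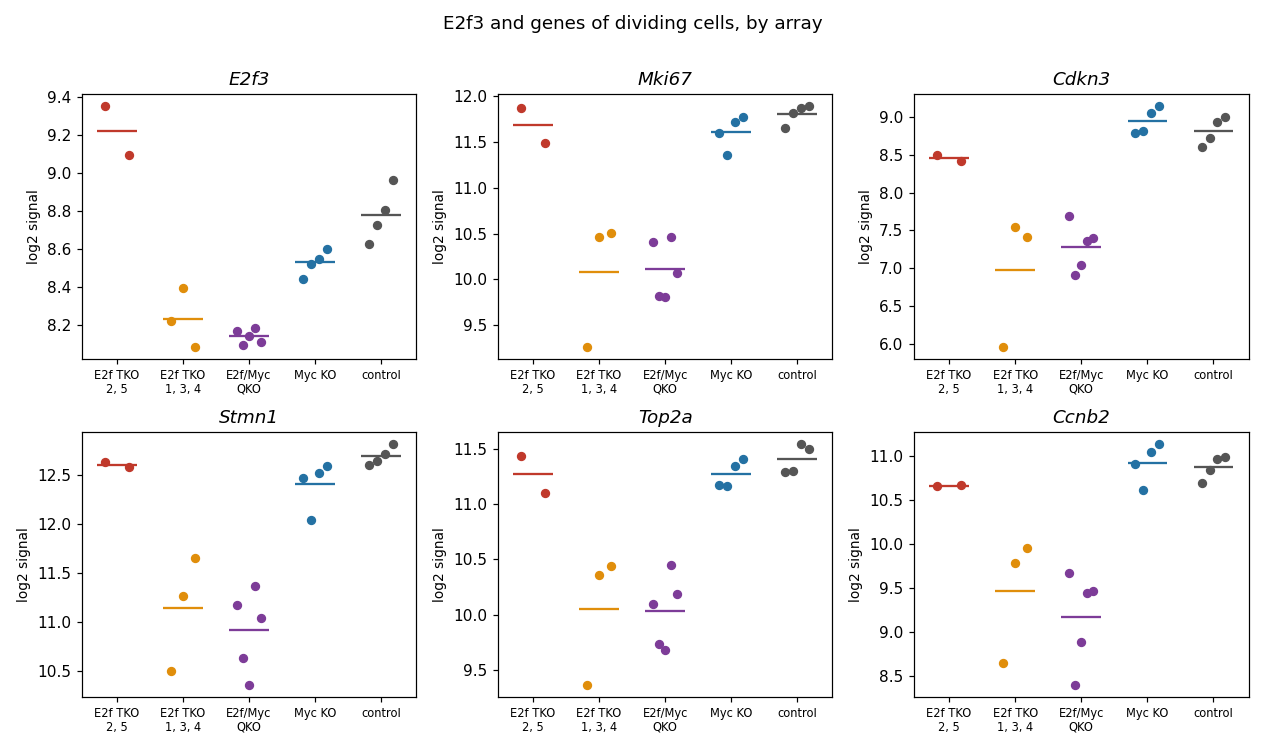
Log2 signal of E2f3 and 5 genes of dividing cells in all 18 arrays, with 1 point for each array and a bar at the mean of each set, in the order E2f TKO 2 and 5, E2f TKO 1, 3 and 4, E2f/Myc QKO, Myc KO and control. E2f3 is above all other arrays in the pair (9.35 and 9.1), and the 5 genes of dividing cells lie near the control points in the pair and near the QKO points in the other E2f TKO arrays. The vertical axes differ between panels and do not start at 0.

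The labelled comparison of all 5 E2f TKO arrays with control called few of these genes. By limma at an adjusted p below 0.05, 305 of 18193 genes (1.68%) were higher and 222 (1.22%) lower in E2f TKO crypts, and of the 59 genes of mitosis 0 were higher and 2 lower. Mki67 differed by -1.09 ± 0.35 (adjusted p = 0.126) and Cdkn3 by -1.25 ± 0.35 (adjusted p = 0.0709). With E2f TKO 2 and 5 left out, 609 genes (3.35%) were higher and 713 (3.92%) lower, and these differences were -1.73 (adjusted p = 0.00061) and -1.84 (adjusted p = 0.00122). Leaving out E2f TKO 2 alone gave -1.37 for Mki67 (adjusted p = 0.0202) and -1.48 for Cdkn3 (adjusted p = 0.0237). Cdkn3 also passed without E2f TKO 5 (-1.46, adjusted p = 0.0251) or E2f TKO 1 (-0.85, adjusted p = 0.0338). The arrays were left out for a measured value, so these calls describe what the pair does to the comparison and are no independent test.

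Genes of the G1/S transition and of replication differed by less than 1 between the sets of E2f TKO arrays wherever the sets did not overlap. Of 54 measured, 10 were higher and 1 lower in the pair without overlap, beside 17.1% and 18.7% of all genes, and the median difference was 0.06 (-0.12 without E2f TKO 1). Against the control mean the list median was 0.3 in E2f TKO 2 and 0.41 in E2f TKO 5, against -0.07, 0.38 and 0.51 in E2f TKO 1, 3 and 4. In the labelled comparison with control, 12 of the 54 rose and 1 fell, beside 1.68% and 1.22% of all genes. Licensing factors Cdc6 and Cdt1 and the fork protein Timeless were chosen after their values were seen. Cdt1 read 11.66 and 11.82 in E2f TKO 2 and 5, against 11.63, 12.10 and 12.17 in E2f TKO 1, 3 and 4 and 10.86 to 11.22 in the 4 control arrays. Timeless read 9.38 and 9.39 in E2f TKO 2 and 5, against 9.05, 9.75 and 9.86 in E2f TKO 1, 3 and 4 and 8.43 to 8.84 in the 4 control arrays. Cdc6 read 8.55 and 8.67 in E2f TKO 2 and 5, against 8.34, 8.97 and 9.07 in E2f TKO 1, 3 and 4 and 7.55 to 8.13 in the 4 control arrays. All 5 E2f TKO arrays exceeded all controls for each, and in the labelled comparison Cdt1 rose by 0.86 ± 0.13 (limma adjusted p = 0.000947), Timeless by 0.86 ± 0.16 (adjusted p = 0.00593) and Cdc6 by 0.93 ± 0.18 (adjusted p = 0.00621).

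A few cell cycle genes lay between. E2f7, an E2f repressor that the activators are known to drive, read 7.07 and 6.96 in the pair, 5.47, 6.02 and 6.92 in E2f TKO 1, 3 and 4, 5.44 to 6.1 in QKO and 7.56 to 7.84 in control arrays. All 5 E2f TKO arrays were below control, with E2f TKO 4 (6.92) close to the pair. In the labelled comparison it fell by 1.23 ± 0.25 (limma adjusted p = 0.0103, and 0.105 in a fit of those 2 groups alone). Cyclin E2 (Ccne2) read 6.87 and 6.7 in the pair, at the lower edge of the control range of 6.86 to 7.25, and 5.67, 5.82 and 6.19 in the other E2f TKO arrays. Among inhibitors of cyclin-dependent kinases, Cdkn1a (p21) was lower in the pair than in all 16 other arrays: Cdkn1a read 9.76 and 9.74 in E2f TKO 2 and 5, against 11.65, 10.61 and 11.20 in E2f TKO 1, 3 and 4, with 10.22 to 10.71 in control arrays (difference -1.4 ± 0.28). The p53 target list as a whole had a median difference of -0.12 and 0.04 without E2f TKO 1, with 2 members higher and 5 lower without overlap among 22, beside 17.1% and 18.7% of all genes.

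Several of the largest differences between E2f TKO and control crypts were present in the pair as in the other E2f TKO arrays. Cdkn2c, the kinase inhibitor p18Ink4c, was the clearest. Cdkn2c read 6.95 and 6.97 in E2f TKO 2 and 5, against 6.59, 6.65 and 6.4 in E2f TKO 1, 3 and 4. It stood at 7.21, 7.01, 7.02, 6.98 and 7.05 in QKO arrays, 10.34, 10.28, 10.68 and 10.59 in Myc KO arrays and 9.66, 10.16, 10.23 and 9.9 in control arrays. All 5 E2f TKO arrays lay at least 2 log2 units below every control array, with the pair slightly above the other 3, and the labelled difference was -3.27 ± 0.13 (limma adjusted p = 6.3e-11). Retnlb, a resistin-like protein of goblet cells chosen after its values were seen, read 6.06 and 5.11 in the pair, 5.91, 7.13 and 6.35 in E2f TKO 1, 3 and 4, 13.44 to 14.37 in QKO, 12.59 to 14.23 in Myc KO and 11.86 to 12.30 in control arrays. The sets of E2f TKO arrays overlapped, and the labelled difference from control was -6.02 ± 0.34 (adjusted p = 1.17e-08).

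Rbp7, a retinol-binding protein, read 5.49 and 5.64 in the pair, 6.53, 7.46 and 7.42 in the other E2f TKO arrays and 10.23 to 11.60 in control arrays, so the pair lay farther from control than the other 3. Amph, amphiphysin, was higher than in control arrays, and again farther from them in the pair. Amph read 8.57 and 8.3 in E2f TKO 2 and 5, against 6.32, 7.29 and 7.54 in E2f TKO 1, 3 and 4, with 6.26 to 7.22 in QKO, 3.98 to 4.3 in Myc KO and 3.66 to 3.81 in control arrays. In the labelled comparison Rbp7 fell by 4.63 ± 0.43 (limma adjusted p = 5.33e-06) and Amph rose by 3.87 ± 0.31 (adjusted p = 1.34e-06). The mast cell proteases Mcpt1 and Mcpt2 were below all controls in all 5 E2f TKO arrays, with 5.12 and 4.64 in the pair, 5.8, 5.97 and 6.41 in the others and 7.21 to 8.19 in control arrays for Mcpt2.

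St3gal4, a sialyltransferase, divided the pair. St3gal4 read 7.65 and 12.05 in E2f TKO 2 and 5, against 12.69, 12.04 and 11.34 in E2f TKO 1, 3 and 4. The signals were 12.03, 11.96, 10.93, 10.15 and 11.40 in QKO arrays, 5.58, 6.27, 6.4 and 6.13 in Myc KO arrays and 5.89, 6.31, 7.13 and 5.9 in control arrays. E2f TKO 5 lay with the other E2f TKO and the QKO arrays, while E2f TKO 2 stood at 7.65, above all 4 controls but nearer to them than to E2f TKO 5. The difference between the sets was -4.38 for E2f TKO 2 alone and 0.03 for E2f TKO 5 alone. In the labelled comparison St3gal4 rose by 4.85 ± 0.72 (limma adjusted p = 0.000812).

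**Figure D3:**
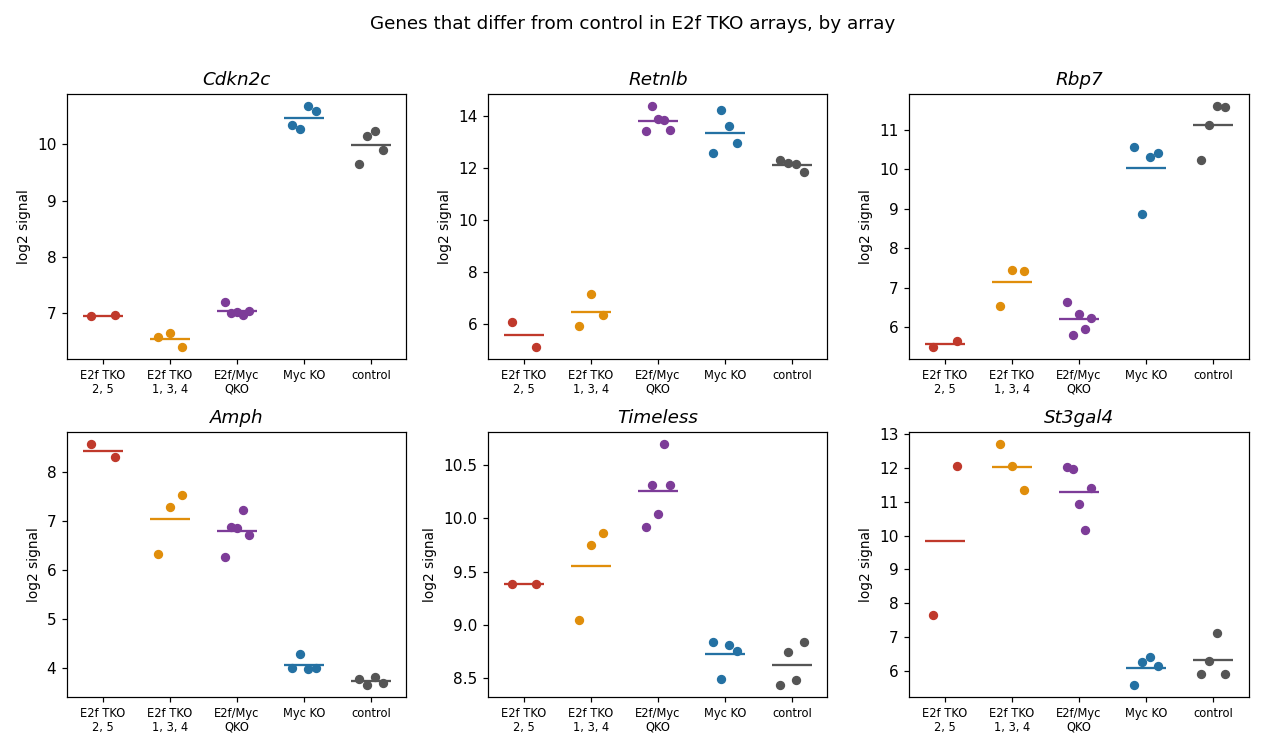
Log2 signal of 6 genes that differ between E2f TKO and control arrays, with 1 point for each array and a bar at the mean of each set, in the order E2f TKO 2 and 5, E2f TKO 1, 3 and 4, E2f/Myc QKO, Myc KO and control. For Cdkn2c, Retnlb and Rbp7 both arrays of the pair lie below all controls, for Amph and Timeless above them, and for St3gal4 E2f TKO 2 (7.65) lies apart from E2f TKO 5 (12.05). The vertical axes differ between panels and do not start at 0.

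The QKO and Myc KO arrays compare crypts labelled as without Myc that lack or keep E2f1 to E2f3. Their test shares no array with the split or the controls. Xist was not balanced between them: it read 6.62 to 6.74 in Myc KO arrays, 6.96, 6.85 and 6.83 in QKO 1, 2 and 3, and 13.40 and 13.01 in QKO 4 and 5. The part of sex in this comparison was not tested. In a limma fit of those 9 arrays, 978 genes (5.38%) were higher and 772 (4.24%) lower in QKO than in Myc KO crypts. With the added condition of a difference of at least 1, 105 genes (0.577%) were higher and 75 (0.412%) lower. The 75 lower genes had a median against the control mean of -0.52 in E2f TKO 2 and -0.54 in E2f TKO 5, and of -1.41, -1.05 and -0.88 in E2f TKO 1, 3 and 4. The medians of the pair were therefore below control and closer to it than those of the other 3. In 51 of the 75 both arrays of the pair lay below all 4 controls, and in 56 all of E2f TKO 1, 3 and 4 did. Over all genes these shares were 14% and 9.36%, and they rest on different numbers of arrays.

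Of these 75 genes, 17 are on the list of mitosis. They had a median of -0.16 in the pair and -1.05 in the other E2f TKO arrays, both against the control mean, and all 17 were below every control in E2f TKO 1, 3 and 4 but 6 in the pair. The other 58 had medians of -0.83 in the pair and -1.15 in the others, and 45 and 39 of them lay below all controls. Among the 17 is Mki67 (-1.49 ± 0.15 in QKO against Myc KO, limma adjusted p = 0.000366) and among the 58 are Cdkn3 (-1.67 ± 0.15, adjusted p = 0.000189) and Cdkn2c (-3.42 ± 0.09, adjusted p = 2.01e-08). Of the 59 genes of mitosis, 37 fell and 0 rose in QKO against Myc KO, beside 4.24% and 5.38% of all genes.

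The 105 genes higher in QKO than in Myc KO had a median above control in every E2f TKO array. It was 0.65 in E2f TKO 2 and 0.7 in E2f TKO 5, against 0.69, 1.07 and 1.2 in E2f TKO 1, 3 and 4. Both arrays of the pair lay above all controls for 77 of the 105, and the other 3 arrays did for 84, beside 13.5% and 8.29% of all genes. Timeless (1.53 ± 0.14 in QKO against Myc KO, limma adjusted p = 0.00024) and Amph (2.72 ± 0.16, adjusted p = 2.53e-05) are among them. Of the G1/S and replication list, 35 of 54 rose and 2 fell in QKO against Myc KO, beside 5.38% and 4.24% of all genes.

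**Figure D4:**
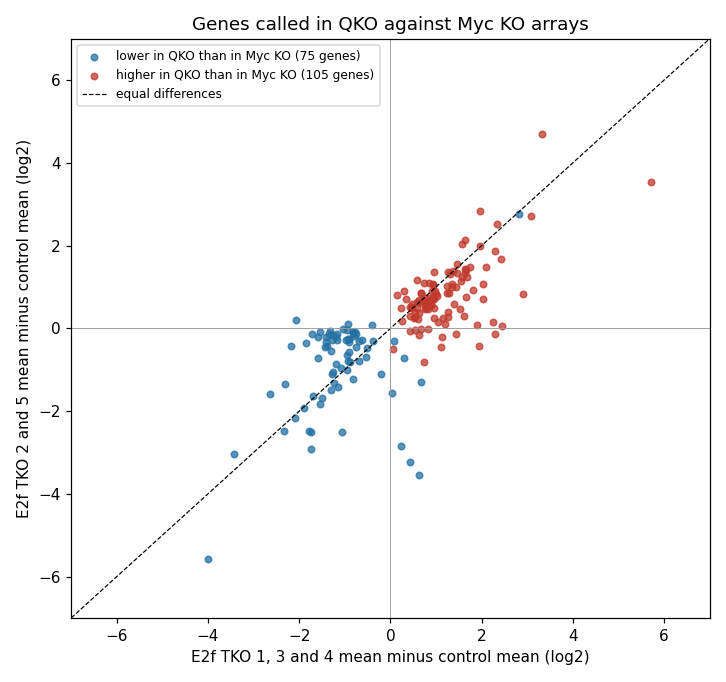
Genes with a difference of at least 1 and an adjusted p below 0.05 in QKO against Myc KO arrays (75 lower, 105 higher), with the mean of E2f TKO 2 and 5 minus the control mean on the vertical axis and the mean of E2f TKO 1, 3 and 4 minus the control mean on the horizontal axis, both in log2 units. Each point is 1 gene and the dashed line marks equal differences. Both axes subtract the same controls, so the agreement of signs is partly shared by construction. A group of lower genes lies near 0 on the vertical axis while lying below 0 on the horizontal one, and the 17 mitotic genes have medians of -0.16 and -1.05.

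The 12 genes with the largest negative difference, among those whose brighter set averaged at least 7, included several outside the AhR response. One of them was Acta1, skeletal muscle actin, with a difference about as large as that of Cyp1b1. Acta1 read 6.4 and 7.23 in E2f TKO 2 and 5, against 11.36, 11.78 and 11.87 in E2f TKO 1, 3 and 4. This actin gave 11.84, 12.35, 12.45, 12.33 and 12.33 in QKO arrays, 11.20, 11.56, 11.60 and 11.79 in Myc KO arrays and 10.19, 8.74, 10.20 and 10.89 in control arrays. The pair lay below all 16 other arrays and the other E2f TKO arrays above all 4 controls (difference -4.85 ± 0.41). Enpp3, an ectonucleotidase, read 5.96 and 5.72 in the pair and 12.11, 10.34 and 9.12 in the other E2f TKO arrays, and Slc5a4b, of the sodium-glucose transporter family, 7.8 and 7.71 in the pair and 13.40, 11.13 and 11.05 in the other E2f TKO arrays. In both E2f TKO 1 was the highest and QKO 4 was below the pair. Ces1g, a carboxylesterase, read 5.98 and 6.21 in the pair and 10.71, 8.92 and 9.65 in the other E2f TKO arrays, with the pair below all 16 others. The remaining genes of the 12 were Xist, Cbr3, the granzyme Gzma, the peptidase Naaladl1, Cyp1a1, which picked the pair, Cyp1b1, Cyp1a2 and Ahrr.

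On the other side, the 12 largest positive differences included the Y-linked Eif2s3y and Kdm5d, which follow the Xist split, and Mki67, Cdkn3, Stmn1 and Amph. Cth, the cystathionine lyase that makes cysteine, read 11.55 and 11.70 in the pair and 9.27, 9.34 and 10.61 in the other E2f TKO arrays, and was above all 16 others. Gkn3, a gastrokine, read 10.37 and 10.74 in the pair and 7.57, 9.37 and 9.13 in the other E2f TKO arrays, and Agr3, of the disulfide isomerase family, 8.77 and 8.56 in the pair and 6.62, 6.81 and 7.33 in the other E2f TKO arrays, and for both a QKO array was higher than the pair. Fstl1, a secreted follistatin-like protein, read 6.76 and 7.36 in the pair and 5.04, 5.31 and 5.98 in the other E2f TKO arrays. Rnf225 read 8.44 and 8.9 in the pair and 7.17, 7.08 and 6.9 in the other E2f TKO arrays, and the pair was above all other arrays for both genes. Sema5a, a semaphorin, read 9.17 and 8.49 in the pair and 6.84, 7.4 and 7.88 in the other E2f TKO arrays with its brightest probe set, and its difference was 0.53 with the mean of its probe sets.

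Of the 277 genes counted as lower, 78 (0.429% of all genes) were also below all 16 other arrays, and of the 68 counted as higher 19 (0.104%) were above all of them. The pair lay within the control range for 40 of the 277 (14.4%) and 7 of the 68 (10.3%), beside 28% of all genes. The mean of the pair was nearer to the control mean than that of the other 3 arrays was for 151 of the 277 (54.5%) and 44 of the 68 (64.7%), beside 50.1% of all genes. The labelled comparison of E2f TKO with control called 7 of the 277 and 4 of the 68. Leaving out E2f TKO 1 kept 165 of the 277 and 35 of the 68. Without genes of the sex chromosomes the counts were 272 and 63. Against E2f TKO 3 alone, the 1 other E2f TKO array with low Xist, they were 201 and 49, an alternative chosen after seeing the data.

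Genes of enterocytes, the absorptive cells above the crypt, were lower in the pair. Of 26 measured, 17 were lower without overlap, 9 by at least 1, and 2 were below all 16 other arrays. The same held for 18.7%, 1.52% and 3.4% of all genes. The median difference of the list was -0.96 (-0.59 without E2f TKO 1). The list median against control was -0.3 in E2f TKO 2 and -0.61 in E2f TKO 5, against 1.15, 0.16 and -0.09 in E2f TKO 1, 3 and 4. Cd36, a fatty acid carrier, read 8.19 and 7.89 in the pair, 12.06, 9.87 and 9.83 in the other E2f TKO arrays and 9.74 to 10.00 in control arrays. Slc15a1, the peptide transporter PepT1, read 6.79 and 6.4 in the pair, 9.52, 7.93 and 7.31 in the other E2f TKO arrays and 7.3 to 8.1 in control arrays. The summed signal of the 26 genes was 16.75 to 16.95 in the pair, 17.19 to 18.05 in the other E2f TKO arrays and 17.03 to 17.42 in control arrays on the log2 scale, and the defining marker Alpi read 13.56 to 13.72 in the pair. In such bulk samples fewer cells of a type and less RNA per cell cannot be told apart.

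T cell genes were lower too, although their list median of -0.17 and -0.3 in the pair reached the lower end of the control range of -0.3 to 0.5. Of 21 measured, 17 were lower without overlap, 9 by at least 1, and 8 were below all 16 other arrays (median difference -0.67, and -0.52 without E2f TKO 1). Of all genes, 18.7%, 1.52% and 3.4% met these rules. Granzyme B (Gzmb) read 6.53 and 6.47 in the pair, 10.67, 8.98 and 9.24 in the other E2f TKO arrays and 7.86 to 9.73 in control arrays. The chemokine Ccl5 read 7.67 and 7.23 in the pair, 11.38, 9.33 and 10.34 in the other E2f TKO arrays and 8.01 to 10.75 in control arrays, and the receptor chain Cd3g 5.9 and 4.83 in the pair, 8.95, 7.04 and 8.1 in the other E2f TKO arrays and 5.98 to 8.35 in control arrays. For these 3 genes the pair lay below all 16 other arrays. The summed signal of the list was 10.57 to 10.97 in the pair, against 12.12 to 13.72 in E2f TKO 1, 3 and 4, 11.47 to 12.41 in QKO, 11.74 to 12.82 in Myc KO and 11.14 to 12.99 in control arrays. Cd3e and Cd8a were at their lowest of all 18 arrays within the pair, at 7.52 and 6.2. The part of T cell number in the AhR and Nrf2 differences was not tested.

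Genes of class II antigen presentation differed within the pair. Their median against control was 1.19 in E2f TKO 2 and -0.67 in E2f TKO 5, against 3.65, 1.17 and 1.66 in E2f TKO 1, 3 and 4, so E2f TKO 2 lay level with E2f TKO 3. H2-Ab1, a class II chain, read 10.20 and 8.04 in the pair, 12.64, 10.73 and 11.01 in the others and 7.08 to 9.6 in control arrays. Genes of fatty acid oxidation that PPAR alpha is known to drive had a median difference of -0.65 over 18 genes, and -0.34 without E2f TKO 1. Acaa1b, a peroxisomal thiolase, read 7.7 and 7.84 in the pair and 12.31, 9.94 and 10.28 in the other E2f TKO arrays, with the pair below all 16 others.

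Crypt stem cell genes as a list were above control in the pair, and also in E2f TKO 4, all QKO arrays and Myc KO 1, 3 and 4. The list median against the control mean was 0.55 and 0.32 in E2f TKO 2 and 5, and -0.37, 0.07 and 0.35 in E2f TKO 1, 3 and 4. It was 0.25 to 1.05 in QKO arrays, 0.05 to 0.27 in Myc KO arrays and -0.16 to 0.09 in control arrays. Of 17 measured, 8 were higher than in the other E2f TKO arrays without overlap, 3 by at least 1, beside 17.1% and 0.374% of all genes. The median difference was 0.4, and 0.12 without E2f TKO 1. Lgr5 read 8.75 and 9.3 in E2f TKO 2 and 5, against 7.35, 7.78 and 8.11 in E2f TKO 1, 3 and 4. This receptor read 7.43, 8.3, 8.19, 9.55 and 8.8 in QKO arrays, 7.45, 7.29, 7.52 and 7.48 in Myc KO arrays and 7.21, 7.34, 7.17 and 7.4 in control arrays. The pair and 4 of the 5 QKO arrays were above the rest of the series for this receptor of crypt base stem cells, with E2f TKO 4 next to them, and the difference of 1.28 ± 0.39 was 0.66 with the mean of its probe sets. The Wnt target Axin2 read 10.12 and 9.54 in the pair, 8.14, 8.59 and 9.04 in the other E2f TKO arrays and 9.0 to 9.42 in control arrays, and Smoc2 read 11.29 and 11.05 in the pair, 9.04, 10.33 and 10.68 in the other E2f TKO arrays and 10.58 to 10.97 in control arrays. Genes of ribosome biogenesis, known targets of Myc, had a median difference of 0.23 over 32 genes, and one that rounds to 0 without E2f TKO 1.

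**Figure D5:**
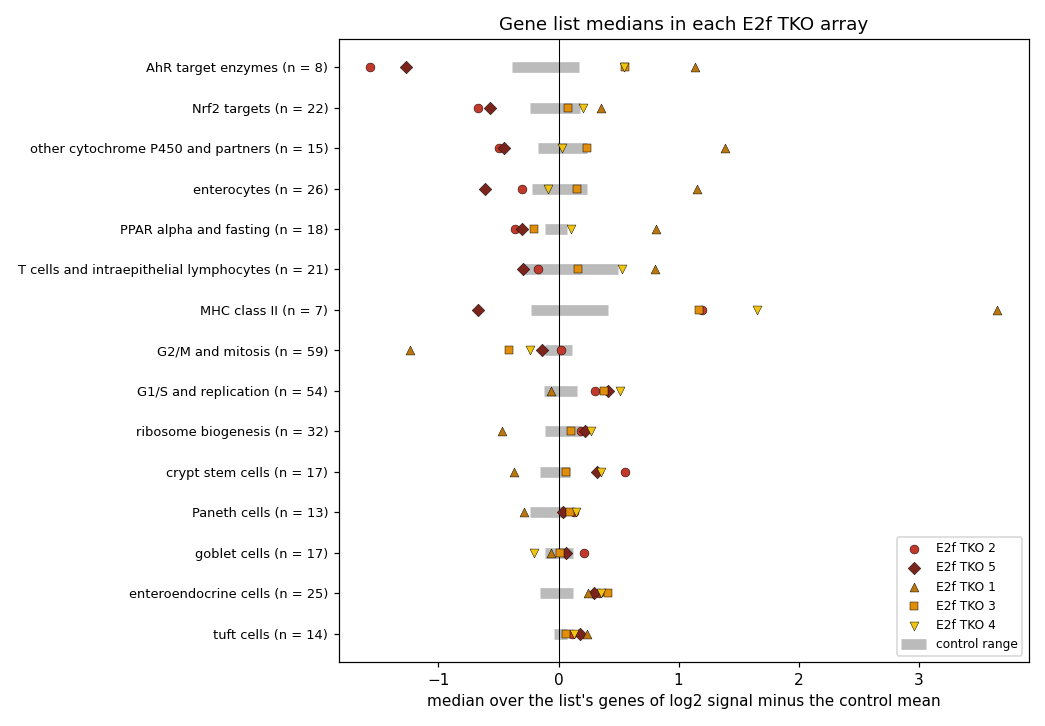
Median of each gene list in each E2f TKO array, as log2 signal minus the mean of the control arrays for each gene, with n the number of genes measured. Markers stand for arrays, those of the pair in red and dark red, and grey bars span the 4 control arrays. The pair is apart from the other E2f TKO arrays for AhR target enzymes and Nrf2 targets. By smaller gaps it is also apart for other cytochromes, enterocytes, PPAR alpha, T cells, mitosis and goblet cells. E2f TKO 1 lies apart for enterocyte and mitotic genes (1.15 and -1.23).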

How the data were processed

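The deposited table holds a log2 signal for each of 45101 Affymetrix probe sets in 18 arrays. The authors deposited these log2 values, and the scale was read from the values themselves. How the authors normalized them is not given in the sources used here. RNA was extracted with TRIzol and labelled with biotin, per the labels' protocols. Array medians differed by 0.126 at most, and no further scaling was applied. The number of arrays limits the precision.

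Control probe sets (64) were left out. A gene symbol was taken from the platform annotation where a probe set had exactly 1 (34945 probe sets, with 932 having several and 9160 none), and the probe set with the highest mean over all arrays stood for each of 18193 genes. limma 3.58.1 in R 4.3.3 gave group means, standard errors and Benjamini-Hochberg adjusted p-values over all genes. E2f TKO against control used all 18 arrays and 4 group means, and QKO against Myc KO used those 9 arrays alone. The 2 sets of E2f TKO arrays were compared with no test. The limma steps were tested on simulated data. Figures were drawn with matplotlib 3.10.9.

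The genes named were drawn from the groups that follow, and not every member is described. The groups were the targeted genes, the measured AhR genes and up to 4 members of each list described. A further group was the 12 largest differences in each direction among genes with no overlap and a mean of at least 7 in the higher set. The last was the 6 genes that passed the QKO against Myc KO test with the highest and the 6 with the lowest differences. Retnlb, Pmm1, Akr1b8, Fbxo5, Cdc6, Timeless and Cdt1 were added after their values were seen. The pair of arrays and all 34 gene lists were chosen with earlier results of these data known. Alternatives were another normalization, a filter on dim genes, other rules for probe sets, other thresholds, single arrays left out, a replicate block and other fits.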

Additional observations from a re-analysis of the deposited data

Results flagged for a closer look

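Of 192 groups of 4 or 5 arrays examined, 9 held an array far from the others, where chance gives about 1 in 20. The interaction of E2f and Myc loss was read for 39 genes, and 0 passed. Many of these were picked for differences among E2f TKO arrays, which widen the error, so the result does not show equal effects. Retnlb was not read. With single arrays left out, Retnlb differed by -6.27 to -5.76 in E2f TKO against control and by 0.2 to 0.75 in QKO against Myc KO. In the controls, control 3 stood apart with 12.6006 for Xist (6.44 to 6.61 in the others), 2.7917 for Eif2s3y (9.09 to 9.37) and 3.262 for Kdm5d (7.45 to 7.88). Control 2 stood apart with 11.3743 for Cbr3, against 12.33 to 12.46. QKO 4 had 6.9813 for Gsta2, against 9.61 to 10.11, and an enterocyte list median of -0.7929, against -0.07 to 0.14. QKO 1 had 11.8378 for Acta1, against 12.33 to 12.45. In the Myc KO arrays, Myc KO 3 had 2.992 for Aldh3a1, against 3.20 to 3.23, and Myc KO 2 had 4.296 for Amph, against 3.98 to 4.01.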

How the results depend on the processing

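The differences between E2f TKO 2 and 5 and E2f TKO 1, 3 and 4 rest on 2 and 3 arrays, and signals near the floor of the arrays limit what low values show. No paired analysis was possible because both sets belong to 1 labelled group. At a least difference of 0.5 the counts were 701 higher and 797 lower, and at 2 they were 3 and 51. With single arrays left out, 46 to 132 genes were higher and 195 to 396 lower, the higher count being 132 without E2f TKO 5 and 107 without E2f TKO 4. Genes beyond all other arrays ranged from 15 to 79 (higher) and from 65 to 144 (lower).

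E2f TKO against control called 152 higher and 101 lower genes when only these groups were fitted, and 609 and 713 without E2f TKO 2 and 5, which turned Cyp1a1 to 0.7513 and Acta1 to 1.66. With single arrays left out it called 159 to 528 higher and 118 to 302 lower genes. Without E2f TKO 1 it called 528 higher, without E2f TKO 3 198 and 132 lower, without E2f TKO 4 198 and 147, without control 1 202 higher, without control 2 199 and 120, without control 3 159 and 118, and without control 4 184 and 139. QKO against Myc KO called 622 to 947 higher and 445 to 785 lower genes, with 622 higher without Myc KO 1, 622 and 445 without Myc KO 3, and 651 and 498 without Myc KO 4. The cause was not tested, beyond the fewer arrays in each fit.

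Same-numbered arrays did not deviate together in every pair (r = -0.04 to 0.29 for E2f TKO and control, -0.05 to 0.24 for QKO and Myc KO). With the replicate block, E2f TKO against control called 377 higher and 276 lower genes and QKO against Myc KO 753 and 624. Of single-gene results under the alternatives, 1238 of E2f TKO against control and 1159 of QKO against Myc KO kept direction and side of the threshold, 23 and 52 lost the call, and 34 and 9 gained it.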

Other observations

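Genes of enteroendocrine, hormone-secreting cells were above control as a list in all E2f TKO, QKO and Myc KO arrays. Their list medians were 0.34 in E2f TKO 2 and 0.29 in E2f TKO 5, against 0.25, 0.41 and 0.35 in E2f TKO 1, 3 and 4. They were 0.48 to 0.73 in QKO, 0.15 to 0.49 in Myc KO and -0.16 to 0.12 in control arrays. By limma 5 of 25 rose in E2f TKO against control, beside 1.68% of all genes. Tuft cell, Paneth cell and goblet cell lists had median differences of 0.04, 0.07 and 0.24 between the sets. Heat shock genes were high in E2f TKO 2 only among the 5, with a list median of 0.72, against -0.04 in E2f TKO 5 and -0.36, 0.07 and 0.24 in E2f TKO 1, 3 and 4. Genes of B and plasma cells likewise read 0.70 in E2f TKO 2 and -0.50 in E2f TKO 5. Both values belong to the array with the largest actin 3′ over 5′ difference, and its part in them was not tested.

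The immediate early gene Ier3 read 6.71 and 6.72 in E2f TKO 2 and 5, 8.05, 8.26 and 8.11 in E2f TKO 1, 3 and 4, and 6.9 to 7.25 in control arrays, so the pair was below and the other 3 above all controls. The zinc importer Slc39a4 showed the same order, with 10.36 and 10.00 in the pair, 11.43, 11.17 and 11.26 in the others and 10.66 to 11.01 in control arrays. Of 26 interferon response genes, 15 lay within the control range in both arrays of the pair, beside 28% of all genes. In the same list 2 were higher and 9 lower in the pair than in the other E2f TKO arrays without overlap (17.1% and 18.7% of all genes), and 3 were below all 16 other arrays (3.4% of all genes).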
